A study of Homo sapiens with 9 samples.

Results

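Tight junctions are the belts that seal the space between neighbouring epithelial cells. Claudins are membrane proteins with 4 spans that polymerise into the strands of the belt, and the mix of claudins sets how tight a layer is and which ions it lets through. Occludin sits in the same strands, and the zonula occludens proteins hold the strands from the inside and tie them to actin. In carcinoma cells the claudins are often studied as markers of epithelial state.

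The genes described here are 9 listed claudin and tight junction genes: the claudins CLDN1, CLDN3, CLDN4, CLDN7 and CLDN12, occludin (OCLN), the zonula occludens genes TJP1 and TJP3, and the junctional adhesion molecule gene F11R. The members are the probe sets annotated to exactly 1 gene, that gene being on the list. This gave 16 of 41091 single-gene probe sets and covered 8 of the 9 genes. F11R had no such probe set in the annotation used and was not analysed here. The members were listed by gene name, not by their response, although earlier results of these data were known.

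All RNA came from PANC-1, a human cell line from a pancreatic adenocarcinoma. Cells were kept for 72 hours in low charcoal-filtered serum with vehicle (DMSO, given as both 0.05% and 0.5% in the labels), with 0.1 µM TVB-3166 or with 1.0 µM TVB-3166, an inhibitor of fatty acid synthase, and each group has 3 arrays. Groups follow the sample titles, since the treatment field of the 1.0 µM samples reads 0.1 µM and 1 description of a 0.1 µM sample reads DMSO. The study asks how blocking palmitate synthesis changes gene expression in tumour cells. Treatments were done in triplicate, but whether each replicate was its own culture is not stated, and p-values measure the spread between these arrays, which may be technical.

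The values are MAS5 signals, the hybridisation brightness of a probe set on a linear scale, and array medians lay between 66.7 and 79.1. Changes are differences of log2(signal + 16) ± the limma standard error, and all p-values are limma's, adjusted over every gene or probe set tested. The added 16 makes the change of a dim gene look smaller than its ratio of signals. Each gene is represented by its probe set with the highest mean, and a change was called at an adjusted p under 0.05. Each comparison has 3 arrays a group. The defining ductal epithelial markers were present: 7 of 7 (KRT7, KRT8, KRT18, KRT19, SOX9, EPCAM and CDH1) lay above the filter on low signals. So did 4 of 4 mesenchymal markers, with VIM, the brightest, between 14342.8 and 25195.1 and FN1, the dimmest, between 47.3 and 122.7. Of the other markers, 1 of 3 immune, 1 of 4 endothelial and 1 of 5 acinar and endocrine genes lay above the filter. The summed signal of the immune markers ran from 50.6 to 187.8 over all arrays, that of the endothelial markers from 194.4 to 349.3 and that of the acinar and endocrine markers from 57.2 to 159. The fibroblast list (4 genes, 2 above the filter) summed to between 414.9 and 530 in DMSO, 345.7 and 371.7 at 0.1 µM and 208.2 and 306 at 1.0 µM. In it COL3A1, a collagen gene, fell by 1.51 ± 0.18 on the log2 scale at 1.0 µM (limma adjusted p = 7.12e-05), and its part in the results below was not tested. DCN, the other fibroblast gene above the filter, went the other way. Its mean was 124.8 at 1.0 µM against 96.7 in DMSO, and it was not called. LUM and PDGFRA lay below the filter. The 4 arrays with brighter hybridisation spikes (DMSO replicate 2, 0.1 µM replicates 1 and 3, 1.0 µM replicate 2) stand apart from the other 5. Differences within each spike set are therefore given for the members at 1.0 µM, where the brighter set has 1 array a group and the dimmer set 2.

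The upstream sequences of the 4 members that changed at 1.0 µM are shown because these genes moved in both directions. They are the 250 bases before a RefSeq start (build GRCh38.p14), written 5′ to 3′ on the gene's strand. Capitals mark each match to the E-box letters CAGGTG on either strand (CACCTG when read on the opposite strand), the element that the Snail and ZEB repressors of epithelial genes are known to bind. The windows are chr3:190322447-190322696 (minus strand) for CLDN1, chr17:7262479-7262728 (minus) for CLDN7 at the second of its 2 listed starts, chr5:69492297-69492546 (plus) for OCLN at the first of its starts, and chr7:73770271-73770520 (minus) for CLDN3.
CLDN1: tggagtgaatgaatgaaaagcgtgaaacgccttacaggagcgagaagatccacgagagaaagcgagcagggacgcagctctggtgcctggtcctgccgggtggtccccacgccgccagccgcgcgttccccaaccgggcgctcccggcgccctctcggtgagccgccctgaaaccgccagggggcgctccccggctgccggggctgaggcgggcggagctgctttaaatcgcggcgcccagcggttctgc
CLDN7: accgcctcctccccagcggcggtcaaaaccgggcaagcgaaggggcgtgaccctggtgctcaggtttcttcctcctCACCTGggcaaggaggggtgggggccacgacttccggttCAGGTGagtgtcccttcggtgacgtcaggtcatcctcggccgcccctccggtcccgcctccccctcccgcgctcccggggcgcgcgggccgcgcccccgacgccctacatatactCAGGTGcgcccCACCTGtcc
OCLN: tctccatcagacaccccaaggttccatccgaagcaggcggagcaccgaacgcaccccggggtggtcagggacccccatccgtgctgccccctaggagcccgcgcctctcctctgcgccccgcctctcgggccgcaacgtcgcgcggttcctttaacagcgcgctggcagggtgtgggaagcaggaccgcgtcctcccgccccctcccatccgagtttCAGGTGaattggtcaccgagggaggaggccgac
CLDN3: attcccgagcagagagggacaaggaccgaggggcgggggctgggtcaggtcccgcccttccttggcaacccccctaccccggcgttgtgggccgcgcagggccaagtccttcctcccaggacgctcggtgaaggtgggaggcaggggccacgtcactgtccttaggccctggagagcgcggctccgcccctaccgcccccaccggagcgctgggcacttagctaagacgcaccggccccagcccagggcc

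CLDN7 held 4 E-box matches in this window, the last of which begins 9 bases before the start, and OCLN held 1, which begins 33 bases before the start. The CLDN7 window at the other listed start, not shown, held 0 E-box matches and 5 of CACCC. The OCLN window at its second start, not shown, held 1 E-box match. Of the members not called at 1.0 µM, TJP1 and TJP3 held 1 match each in 1 window, and CLDN4 and CLDN12 held 0. In all, 5 of the 14 member windows held an E-box match, so the letters were not limited to the members that rose. Neither CLDN1 nor CLDN3 has the E-box letters in the window shown. Of 35116 windows of the same length, 17.5% held at least 1 match, with a mean of 0.21 matches a window. The GC box GGGCGG, read on both strands, was found 2 times for CLDN1, 1 time each for CLDN7 and OCLN and 4 times for CLDN3. Of all windows 42.6% held at least 1, with a mean of 0.97 matches a window. The letters CACCC, read on both strands, matched 1 time each for CLDN1 and CLDN7, 4 times for OCLN and 0 times for CLDN3. Of all windows 54.7% held at least 1, with a mean of 0.91 matches a window. None of the matches to these 3 motifs overlap in the windows shown. A match is a run of letters and not a shown binding site.

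At 1.0 µM against DMSO, limma called 4 of the 8 genes: CLDN1, CLDN7 and OCLN rose and CLDN3 fell. Over all 13948 tested genes 23.2% were called, 12.3% higher and 11% lower. Of the 8, 5 had an unadjusted p under 0.05. The share of all tested genes or probe sets at that unadjusted level is not given. For genes at 1.0 µM it is at least the 23.2% called. Counts at an unadjusted p, here and below, therefore have no background beside them. The median change over the 8 was 0.29, beside 0.006 over all tested genes. All 8 passed the filter, which asked for a mean signal over about 38.95. TJP3 came nearest to it, with a group mean of 50.3 at 0.1 µM. Of the 16 probe sets 14 passed and were tested one by one, and 7 rose, 2 fell and 5 were not called, where 19.8% of all 26873 tested probe sets were called, 10.1% higher and 9.77% lower. In 11 of the 14 the 1.0 µM and DMSO arrays did not overlap, against 34.9% of all tested probe sets. The 11 include all 4 of OCLN and both of CLDN1, CLDN3 and TJP1. Probe sets of 1 gene are repeat readings, so counts of probe sets are not counts of separate members. Arrays are bulk RNA, so fewer cells of a kind and less RNA per cell cannot be told apart.

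**Figure D1:**
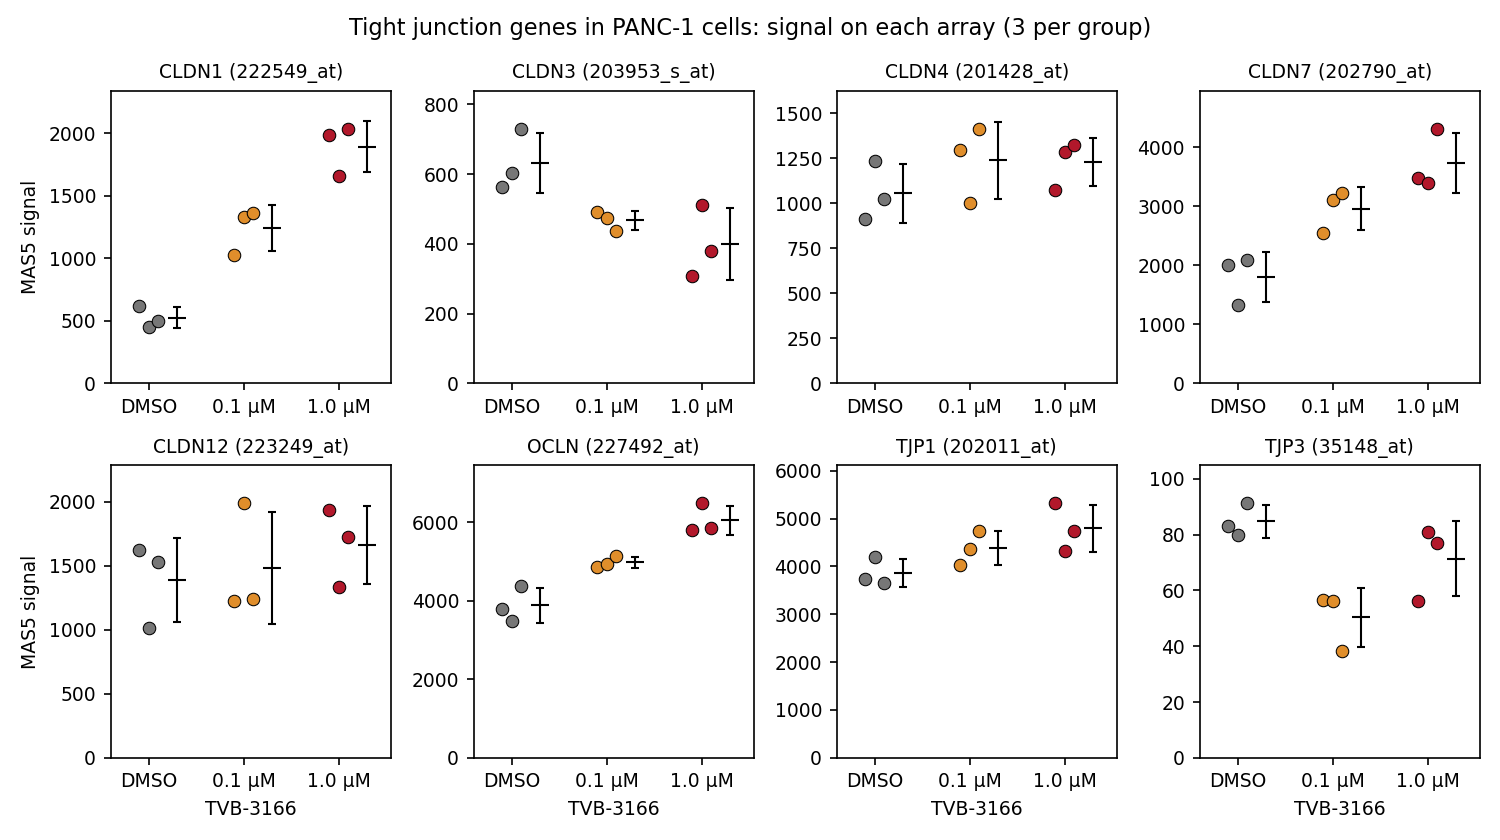
MAS5 signal (linear, y axis from 0) of the probe set that stands for each of the 8 genes, on each of the 3 DMSO, 3 0.1 µM and 3 1.0 µM arrays (points); the bar beside them is the mean ± SD. CLDN1 runs from 452.8 to 618.0 in DMSO and from 1659.4 to 2037.8 at 1.0 µM, with 0.1 µM between, and CLDN3 runs the other way.

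CLDN1 (Entrez gene 9076, chromosome 3, 190305707 to 190322446), a barrier-forming claudin, had the largest rise among the members. Its signal (222549_at) was 618.0, 452.8 and 501.6 in DMSO, 1030.1, 1332.9 and 1359.3 at 0.1 µM and 1983.4, 1659.4 and 2037.8 at 1.0 µM. No 2 of the 3 groups overlap, and the order is DMSO, 0.1 µM, 1.0 µM. Mean signal at 1.0 µM was 1893.5 ± 204.6 against 524.1 ± 84.9 in DMSO (SD, n = 3 each), a ratio of 3.61. The log2 change was 1.83 ± 0.14 (limma adjusted p = 3.55e-06). Its other probe set, 218182_s_at, read 152.4, 245.5 and 149.5 in DMSO, 436.3, 406.1 and 447.3 at 0.1 µM and 617.7, 577.1 and 598.6 at 1.0 µM. It too kept the 3 groups apart and rose by 1.66 ± 0.17 at 1.0 µM (limma adjusted p = 2.9e-05). DMSO replicate 2, an array of the brighter spike set, was the lowest DMSO array on the first probe set and the highest on the second. The difference on the second was 1.18 within the brighter spike set and 1.90 within the dimmer one, and on the first 1.84 and 1.82.

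CLDN7 (Entrez gene 1366, chromosome 17, 7259903 to 7263213), a claudin also found along the lateral membrane of epithelial cells, rose as well. Its single probe set, 202790_at, read 2009.7, 1317.6 and 2080.5 in DMSO, 2538.8, 3107.9 and 3218.7 at 0.1 µM and 3480.5, 3390.1 and 4311.3 at 1.0 µM. Again every array of a higher dose lay above every array of a lower one. The mean at 1.0 µM was 3727.3 ± 507.8 against 1802.6 ± 421.5 in DMSO (SD, n = 3 each), a ratio of 2.07 and a log2 change of 1.06 ± 0.17 (limma adjusted p = 0.000721). Within the brighter spike set the difference was 1.35 and within the dimmer one 0.92.

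CLDN3 (Entrez gene 1365, chromosome 7, 73768997 to 73770270), a sealing claudin and a receptor of a clostridial enterotoxin, was the member that fell. Its signal (203953_s_at) was 563.9, 602.3 and 730.4 in DMSO, 490.2, 474.2 and 436.9 at 0.1 µM and 309.0, 512.3 and 380.2 at 1.0 µM. All treated arrays lay below all DMSO arrays, but the 2 doses overlap. The mean was 400.5 ± 103.2 at 1.0 µM against 632.2 ± 87.2 in DMSO (SD, n = 3 each), and the log2 change was −0.66 ± 0.17 (limma adjusted p = 0.014). The second probe set, 203954_x_at, fell by 1.00 ± 0.24 (limma adjusted p = 0.0109), with 225.4, 195.3 and 328.4 at 1.0 µM against 379.5, 716.3 and 467.4 in DMSO. The endings _s_at and _x_at mark probe sets that can also bind related transcripts. The call of CLDN3 was lost without 1.0 µM replicate 1 (−0.49, limma adjusted p = 0.0586) and without DMSO replicate 3 (−0.55, 0.0576). The spike sets gave −0.23 (brighter) and −0.87 (dimmer) for the first probe set and −1.79 and −0.60 for the second, all negative but of unequal size.

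CLDN4 (Entrez gene 1364, chromosome 7, 73830996 to 73832690) lies 60725 bases from CLDN3 and is transcribed from the opposite strand. Like CLDN3, CLDN4 encodes an enterotoxin-binding claudin. It was not called. Its signal (201428_at) was 912.9, 1234.2 and 1022.2 in DMSO, 1298.3, 1003.1 and 1415.5 at 0.1 µM and 1076.6, 1285.9 and 1324.1 at 1.0 µM, and all 3 groups overlap. At 1.0 µM the change was 0.22 ± 0.15 (limma adjusted p = 0.331, 95% interval −0.10 to 0.54). Within the brighter spike set the difference was 0.06 and within the dimmer one 0.30. Its second probe set, 1569421_at, read 3.0 to 22.2 over all arrays, below the filter, and was not tested.

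CLDN12 (Entrez gene 9069, chromosome 7, 90403461 to 90415954), a claudin that lacks the usual tail for binding zonula occludens proteins, was not called. Signals of 223249_at were 1620.1, 1012.5 and 1529.0 in DMSO, 1224.8, 1986.5 and 1239.6 at 0.1 µM and 1931.9, 1335.4 and 1721.2 at 1.0 µM. The groups overlap, and in each group the arrays of the brighter spike set are the low ones. The change at 1.0 µM was 0.27 ± 0.22 (limma adjusted p = 0.419, 95% interval −0.20 to 0.74). The spike sets gave 0.39 (brighter) and 0.21 (dimmer). With the spike set as a term in the fit, CLDN12 was called at both doses (1.0 µM 0.27, limma adjusted p = 0.0291; 0.1 µM 0.28, 0.0486).

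OCLN (Entrez gene 100506658, chromosome 5, 69492547 to 69558104), which encodes occludin, was read by 4 probe sets and rose on 3 of them at 1.0 µM. For 227492_at the signals were 3791.2, 3482.5 and 4372.7 in DMSO, 4867.7, 4932.4 and 5142.5 at 0.1 µM and 5813.0, 6486.9 and 5862.6 at 1.0 µM. The groups form 3 separate steps. The mean was 6054.2 ± 375.6 at 1.0 µM against 3882.1 ± 452.0 in DMSO (SD, n = 3 each), a ratio of 1.56 and a log2 change of 0.64 ± 0.10 (limma adjusted p = 0.000677). The spike sets gave 0.89 (brighter) and 0.52 (dimmer). Next, 209925_at read 1131.6, 1187.4 and 1090.2 in DMSO, 1497.5, 1496.3 and 1619.2 at 0.1 µM and 1761.6, 1696.5 and 1736.2 at 1.0 µM, and rose by 0.60 ± 0.09 (limma adjusted p = 0.000434). The third, 231022_at, rose by 0.52 ± 0.10 (limma adjusted p = 0.00317). The dimmest, 235937_at, differed by 0.42 ± 0.17 and was not called (limma adjusted p = 0.113), although its 1.0 µM arrays (239.2 to 323.4) lay above its DMSO arrays (189.0 to 229.3). The 4 changes thus lay between 0.42 and 0.64, all positive.

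TJP1 (Entrez gene 7082, chromosome 15, 29699367 to 29969049) encodes ZO-1, the main scaffold under the strands, and its probe sets fell on both sides of the threshold. For 202011_at the signals were 3745.4, 4208.1 and 3659.8 in DMSO, 4033.5, 4360.7 and 4749.4 at 0.1 µM and 5320.9, 4332.1 and 4731.7 at 1.0 µM. The 1.0 µM arrays all lay above the DMSO arrays, by little in the case of 1.0 µM replicate 2. The change was 0.31 ± 0.11 (limma adjusted p = 0.0568). On 214168_s_at, with 623.6, 702.8 and 629.7 at 1.0 µM against 417.0, 462.7 and 572.0 in DMSO, it was 0.43 ± 0.13 (limma adjusted p = 0.0365). The gene was called when its 2 probe sets were averaged (0.37, limma adjusted p = 0.00622) and without 1.0 µM replicate 2 (0.38, 0.0256). It was also called with the spike set as a term (0.31, 0.0312), in the dimmer spike set alone (0.44, 0.02) and after quantile normalization (0.32, 0.0376). The other 14 of 19 alternatives did not call it, with a change of 0.23 and an adjusted p of 0.207 without 1.0 µM replicate 1. Within the brighter spike set the difference was 0.04 on 202011_at and 0.59 on 214168_s_at, and within the dimmer one 0.44 and 0.35.

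TJP3 (Entrez gene 27134, chromosome 19, 3708384 to 3750813) encodes ZO-3, a scaffold found in epithelia, and was dim. Its signal (35148_at) was 82.9, 79.9 and 91.2 in DMSO, 56.5, 56.2 and 38.2 at 0.1 µM and 56.1, 81.0 and 77.1 at 1.0 µM. The 0.1 µM arrays lay below the DMSO arrays, and the 1.0 µM arrays overlap both. At 1.0 µM the change was −0.21 ± 0.24 (limma adjusted p = 0.583, 95% interval −0.73 to 0.30), and the spike sets differed in sign, with 0.02 (brighter) and −0.33 (dimmer). The second probe set, 213412_at, read 5.2 to 19.0 and was below the filter.

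At 0.1 µM against DMSO, limma called 3 of the 8 genes, where 12.0% of all tested genes were called, 6.89% higher and 5.11% lower. CLDN1, CLDN7 and OCLN rose, and 5 were not called. This comparison shares its DMSO arrays with the one at 1.0 µM. CLDN1 rose by 1.22 ± 0.14 (limma adjusted p = 0.000171), with a mean of 1240.8 ± 182.9 at 0.1 µM against 524.1 ± 84.9 in DMSO (SD, n = 3 each). CLDN7 rose by 0.73 ± 0.17 (limma adjusted p = 0.0145), with 2955.1 ± 364.8 against 1802.6 ± 421.5. OCLN rose by 0.36 ± 0.10 (limma adjusted p = 0.0356), with 4980.9 ± 143.7 against 3882.1 ± 452.0. CLDN3 differed by −0.42 ± 0.17 and was not called (limma adjusted p = 0.139), although all its 0.1 µM arrays lay below its DMSO arrays; averaged over its probe sets it was called (−0.56, 0.0281). TJP3 differed by −0.61 ± 0.24 (limma adjusted p = 0.122) and was called without the intensity trend (−0.61, 0.0417). The others also went uncalled: TJP1 differed by 0.18 ± 0.11 (limma adjusted p = 0.335), CLDN4 by 0.22 ± 0.15 (0.392) and CLDN12 by 0.09 ± 0.22 (0.852).

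By probe set, 5 of 14 rose at 0.1 µM and 0 fell by limma, with an unadjusted p under 0.05 in 10; over all tested probe sets 9.26% were called, 5.19% higher and 4.07% lower. The 5 were both of CLDN1, that of CLDN7 and 227492_at and 209925_at of OCLN. In 9 of the 14 the 0.1 µM and DMSO arrays did not overlap, against 28.0% of all tested probe sets. The call of OCLN at this dose held in only 9 of 19 alternatives, with changes of 0.28 to 0.45; it was lost without DMSO replicate 1 (limma adjusted p = 0.108) or 2 (0.129), without 0.1 µM replicate 1 (0.0848), 2 (0.0627) or 3 (0.14) and without 1.0 µM replicate 3 (0.0574), as well as without the filter (0.051), without the intensity trend (0.0728) and in the dimmer spike set alone (0.318). That of CLDN7 was lost without 0.1 µM replicate 3 (0.66, limma adjusted p = 0.0762) and in the dimmer spike set alone (0.60, 0.10), which holds 1 array of that dose; the brighter set gave 1.11. CLDN1 was called at both doses in all 19 alternatives, with 1.73 to 1.95 at 1.0 µM and 1.12 to 1.35 at 0.1 µM.

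**Figure D2:**
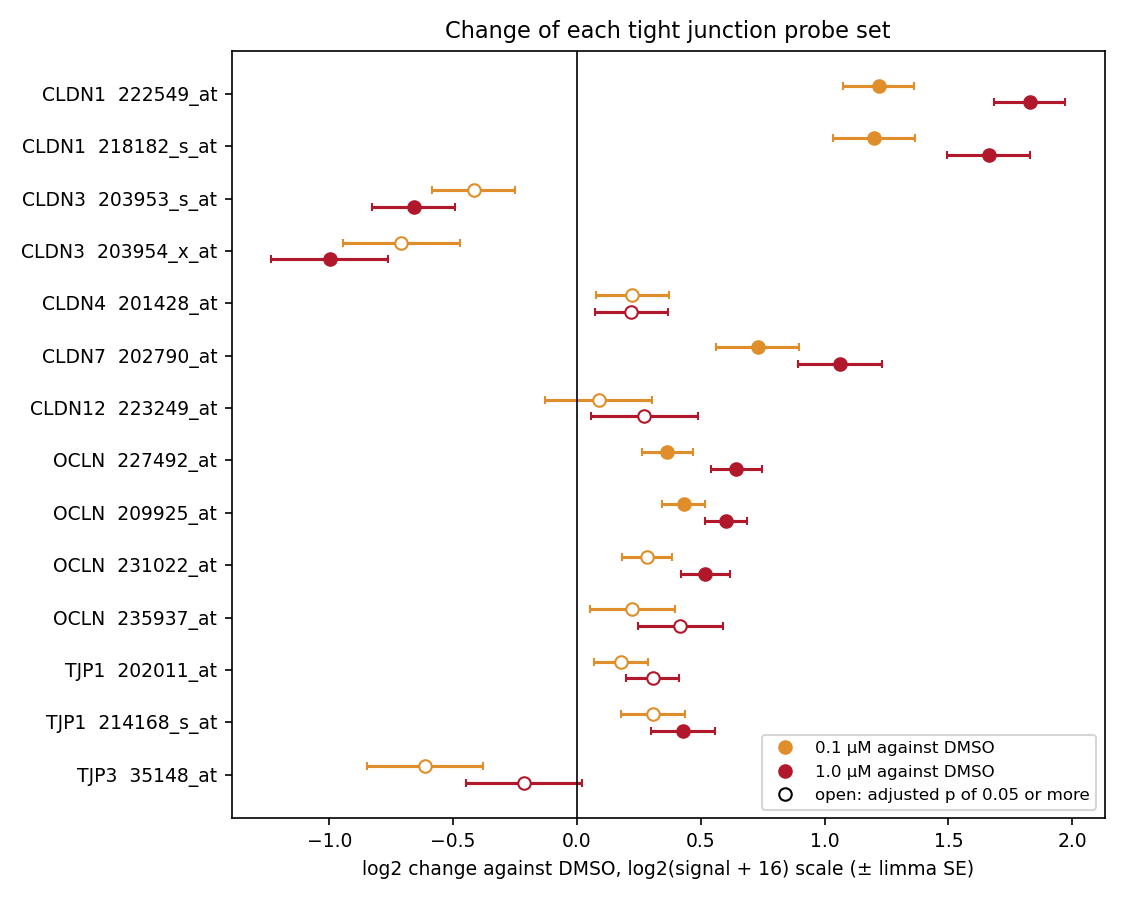
Log2 change against DMSO (x axis, log2(signal + 16) scale, ± limma SE) of each of the 14 tested probe sets (rows) at 0.1 µM and 1.0 µM TVB-3166; filled points passed the threshold on the adjusted p. Both CLDN1 probe sets lie right of 1, the 4 OCLN probe sets lie close together between 0.22 and 0.64, and the CLDN3 probe sets lie left of 0.

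At 1.0 µM against 0.1 µM, limma called 0 of the 8 genes, with an unadjusted p under 0.05 in 2, and 0.817% of all tested genes, 0.387% higher and 0.430% lower. CLDN1 was higher at 1.0 µM by 0.61 ± 0.14 (limma adjusted p = 0.0768), with no overlap of the arrays, and was called when its probe sets were averaged (0.54, 0.0336) or without 1.0 µM replicate 2 (0.70, 0.0481). OCLN differed by 0.28 ± 0.10 (limma adjusted p = 0.283) and CLDN7 by 0.33 ± 0.17 (0.456), both also without overlap. Of the 14 probe sets 0 were called, with an unadjusted p under 0.05 in 4, and limma called 0.324% of all tested probe sets, 0.127% higher and 0.197% lower. A positive difference was seen in 11 and a negative one in 3, some of them repeat readings of the same gene. The median difference over all tested genes was 0.005. In 5 the 1.0 µM arrays all lay above the 0.1 µM arrays, and 17.7% of all tested probe sets did not overlap here in either direction. The 95% intervals of the other members were −0.61 to 0.13 for CLDN3, −0.32 to 0.32 for CLDN4, −0.29 to 0.65 for CLDN12, −0.10 to 0.36 for TJP1 and −0.12 to 0.92 for TJP3.

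Across the 9 arrays the members fell into like and unlike patterns, given as a description, since the arrays share 3 groups and a scaling. CLDN1 correlated with CLDN7 at r = 0.95 and with OCLN at 0.92, and CLDN7 with OCLN at 0.92. CLDN3 ran against them, at −0.87 with CLDN1, −0.74 with CLDN7 and −0.65 with OCLN. CLDN4 and CLDN12 correlated at −0.58 with each other. Among the other tested genes, the 3 most like CLDN1 over the 9 arrays were RAB39B (r = 0.999), GFPT1 (0.998) and KLF11 (0.9967). For CLDN7 they were TMEM198 (0.9835), EPHB1 (0.9821) and LYRM2 (0.9718), and for OCLN RUBCN (0.991), STX4 (0.9885) and ITPRIP (0.9879). For CLDN3 they were CENPV (0.979), BCAS4 (0.9751) and PRPF19 (0.9705).

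The related junction lists are read beside the shares over all tested genes at 1.0 µM, 12.3% higher and 11% lower. Among 17 other claudin genes, 11 were tested at 1.0 µM and 0 rose while 1 fell by limma, with an unadjusted p under 0.05 in 2 and a median change of 0.06. The faller was CLDN10, which encodes a claudin that forms ion channels. It read 385.4, 374.6 and 318.7 at 1.0 µM against 1011.0, 927.4 and 823.9 in DMSO, with no overlap. CLDN10 fell by 1.32 ± 0.13 (limma adjusted p = 1.53e-05) at 1.0 µM. At 0.1 µM it fell by 1.08 ± 0.13 (limma adjusted p = 0.000164), where its arrays read 405.9, 474.3 and 401.0. Of 6 tested genes for other tight junction membrane proteins 1 rose. This was MARVELD2, which encodes tricellulin, the protein of tricellular corners, at 0.34 ± 0.10 (limma adjusted p = 0.0284), with 2309.7, 2160.8 and 2382.8 at 1.0 µM against 1871.2, 1597.0 and 1959.7 in DMSO. At 0.1 µM it differed by −0.02 ± 0.10 (limma adjusted p = 0.939), and its second probe set was not called at 1.0 µM (0.21 ± 0.19, limma adjusted p = 0.488).

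The lists of genes behind the membrane and of other junctions had 1 or 2 falls each at 1.0 µM, and counts this small are not set apart from the 11% of all genes called lower. Among 15 tested plaque and scaffold genes 0 rose and 2 fell by limma (5 at an unadjusted p under 0.05; median −0.07): CGNL1, which encodes paracingulin (−0.65 ± 0.17), and AMOTL1, an angiomotin-like scaffold gene (−0.44 ± 0.13). Of 15 tested polarity genes 1 fell, the lateral polarity gene LLGL2 (−1.24 ± 0.23, limma adjusted p = 0.00225), with 3 at an unadjusted p under 0.05 and a median of −0.19. Among 20 genes of junction trafficking and kinases 2 fell, the ubiquitin ligase gene MARCHF2 (−0.38 ± 0.10) and the protease gene CTSB (−0.39 ± 0.13), with 6 at an unadjusted p under 0.05 and a median of −0.04. In the desmosome and adherens junction list 2 of 13 fell, the nectin gene NECTIN2 (−0.57 ± 0.12) and the plakoglobin gene JUP (−0.56 ± 0.14), with 3 at an unadjusted p under 0.05 and a median of −0.14. The medians stand beside 0.006 over all tested genes, and other probe sets of CGNL1, AMOTL1 and NECTIN2 were in part not called.

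**Figure D3:**
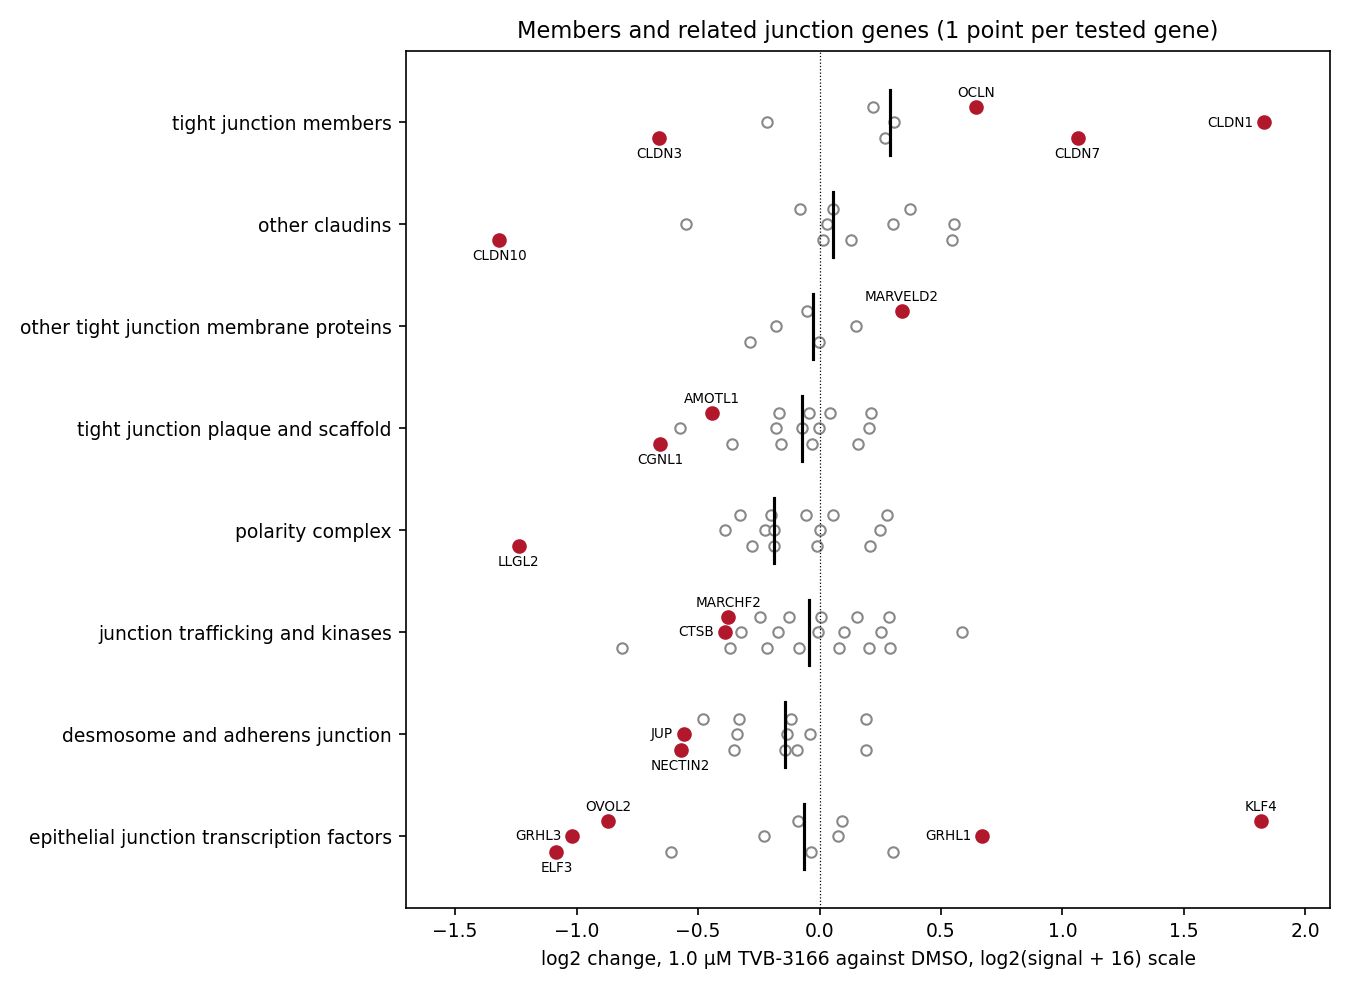
Log2 change at 1.0 µM TVB-3166 against DMSO (x axis, log2(signal + 16) scale) of each tested gene in the members and in 7 lists of related junction genes (rows); red points with names passed the threshold, open points did not, and the black bar is the list's median. CLDN1, CLDN7 and OCLN lie right of their list's median of 0.29, and the called genes of 5 of the other lists all lie left of 0.

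At 0.1 µM, 0 of the 11 other claudins rose and CLDN10 fell. The lists at this dose are read beside 6.89% of all tested genes called higher and 5.11% lower. Counts of 0 or 1 in lists this small are not set apart from those shares. In the trafficking list MICALL2, a gene of junction vesicle traffic, rose by 0.70 ± 0.18 (limma adjusted p = 0.0266), while its other probe sets were not called and differed in sign (−0.44 ± 0.24 and 0.23 ± 0.24). The kinase gene WNK1 fell by 0.46 ± 0.11 on its brightest probe set (limma adjusted p = 0.0181). Its other tested probe sets were not called, with changes from −0.43 to −0.16 (limma adjusted p from 0.0985 to 0.787). The E-cadherin gene CDH1 fell by 0.59 ± 0.14 on its brightest probe set (limma adjusted p = 0.0145), with 869.4, 1139.1 and 984.5 at 0.1 µM against 1646.6, 1382.8 and 1482.9 in DMSO. Its other probe set differed by 0.00 ± 0.18. The other membrane proteins, plaque genes and polarity genes had 0 calls by limma at this dose, with an unadjusted p under 0.05 in 1 of 6, 3 of 15 and 1 of 15. In the fit by probe set, the second LLGL2 probe set was called lower (−0.56 ± 0.15, limma adjusted p = 0.0413). Between the doses limma called 0 genes in each of these lists, beside 0.817% of all tested genes, with an unadjusted p under 0.05 in 0 to 4.

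Transcription factors known to act on junction genes moved in both directions at 1.0 µM: of 12 tested, 2 rose, 3 fell and 7 were not called, beside 12.3% higher and 11% lower over all tested genes. KLF4, an epithelial differentiation factor, read 1327.5, 1087.9 and 1137.1 at 1.0 µM against 390.5, 308.5 and 280.1 in DMSO and rose by 1.82 ± 0.14 (limma adjusted p = 3.94e-06). At 0.1 µM KLF4 read 667.7, 874.6 and 761.1 and rose by 1.20 ± 0.14 (limma adjusted p = 0.000213), and GRHL3 fell by 0.56 ± 0.15 (0.0356), the 2 calls among the 12 at that dose. The shares over all tested genes at 0.1 µM were 6.89% higher and 5.11% lower. The other KLF4 probe set rose by 1.13 ± 0.24 at 1.0 µM. GRHL1, a Grainyhead-like factor, rose by 0.67 ± 0.16 (limma adjusted p = 0.0113), and its second probe set was not called (0.35 ± 0.21, limma adjusted p = 0.285). The fallers were GRHL3 (−1.02 ± 0.15), the epithelial ETS factor ELF3 (−1.08 ± 0.15) and OVOL2, a repressor of mesenchymal genes (−0.87 ± 0.24). ZEB1, a repressor of epithelial genes, differed by 0.30 ± 0.11 and was not called (limma adjusted p = 0.0701). The Snail gene SNAI1 went the other way, with a mean signal of 82.0 at 1.0 µM against 130.6 in DMSO, and was not called. SNAI2 and ZEB2 lay below the filter. Among the ductal markers KRT7 rose by 1.06 ± 0.12 on its brightest probe set and differed by −0.02 ± 0.18 on the other (not called), and KRT8 (−0.86 ± 0.15) and KRT19 (−0.90 ± 0.17) fell, while EPCAM and CDH1 were not called at this dose. The summed signal of the 7 ductal markers ran from 57544.8 to 78733.8 in DMSO and from 51398.7 to 70682.8 at 0.1 µM. At 1.0 µM it ran from 41490.5 to 57311.6, ending just below the lowest DMSO sum. Most of the sum is KRT8, KRT18 and KRT19, with DMSO means of 19992.9, 21984.0 and 20398.7. SOX9 went the other way, as KRT7 did, with a mean of 4685.9 at 1.0 µM against 3925.9 in DMSO, and was not called. The part of these marker changes in the members' changes was not tested.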

How the data were processed

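Total RNA was labelled with biotin and hybridised to Affymetrix HG-U133 Plus 2.0 arrays, per the labels. The deposited intensity of each probe set is a MAS5 signal, per the submitters' processing notes, with no release named there, and the authors analysed the data in Partek, per the labels' design text. The trimmed mean of every array is 500.06 (2% cut at each end), so each array was scaled to 1 target. The number of arrays limits the precision. Symbols came from the platform annotation, updated by Entrez identifier to RefSeq on GRCh38.p14 (41037 of 41091 probe sets). Of 54675 probe sets, 62 controls were left out, 1801 had several genes and 11721 none listed. The deposited signals were put on the log2(signal + 16) scale without further normalization, and the dimmest 40% of probe sets by mean were dropped. Then the 9 arrays in 3 groups were fitted in 1 model with limma 3.58.1 (lmFit, eBayes with trend, R 4.3.3), with 6 residual and 5.93 prior degrees of freedom and Benjamini-Hochberg adjustment. The gene fit held 13948 genes and the probe set fit 26873 probe sets. The fit was tested on simulated data.

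Named genes are all members, up to 4 called genes each way per related list, and the 3 genes most correlated with each called member. ZEB1, ZEB2, SNAI1, SNAI2, EPCAM, VIM, FN1, SOX9, KRT18, DCN, LUM and PDGFRA are named besides, after their values were seen. Members and lists were chosen with earlier results of these data known. The 19 alternatives changed the added constant, filter, scaling, probe set rule, trend, replicate block and spike set, and left out each array. Upstream sequences and gene positions are from RefSeq. No pairing by replicate number was seen in the values, and the main fit was unpaired. A further list of related genes is not reported here.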

Additional observations from a re-analysis of the deposited data

How the results depend on the processing

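Over 8 genes, 3 comparisons and 19 alternatives, 422 member values kept their direction and side of the threshold, 14 lost a call, 11 gained one and 9 changed sign. Every sign change was in CLDN4 or CLDN12, neither called there with all arrays and the settings of the report. For CLDN4 at 1.0 against 0.1 µM the difference became 0.10 with the spike set as a term and 0.25 in the dimmer spike set alone, and ran from −0.15 to 0.10 with each array left out (0.09 without 1.0 µM replicate 1, 0.04 without 0.1 µM replicate 1, 0.10 without 0.1 µM replicate 3). For CLDN12 it became −0.01 and −0.12 under the same spike settings, and at 0.1 µM against DMSO it ran from −0.14 (without 0.1 µM replicate 2) to 0.21 (without 0.1 µM replicate 1), with −0.12 without DMSO replicate 2. The count of called members at 0.1 µM was 1 in the dimmer spike set, and 1 to 3 with each array left out (1 without 0.1 µM replicate 3); at 1.0 µM it was 3 to 5, and between doses 0 to 1, with 1 also for averaged probe sets. Over the alternatives that keep all arrays, the count at 1.0 µM was 4 to 5, except 6 with the spike term, and at 0.1 µM 2 to 4, with 4 for the spike term and for averaged probe sets. Of all genes, 1674 were called at 0.1 µM against DMSO, 324 in the dimmer spike set and 843 to 2003 with each array left out. Between doses 114 were called, against 67 without the filter, 173 after quantile normalization, 23 without the trend, 256 with the spike term, 1 in the dimmer spike set and 11 to 186 with each array left out; at 1.0 µM against DMSO the range was 2343 to 3329. Apart from the smaller sample sets, the cause was not tested.

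With the replicate block, 23 genes were called between doses, and OCLN lost its call at 0.1 µM (limma adjusted p = 0.0888), the only call of a member it changed. Same-numbered samples did not deviate together (r from −0.338 to 0.217, and 0 of 9 arrays matched best with its own number), so no pairing by number was seen. These values cannot exclude one, since every replicate number holds arrays of both the brighter and the dimmer spike set.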
